A study of Homo sapiens with 5 samples.

Results

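The positive transcription elongation factor b (P-TEFb), its inhibitors and its partners were followed at the mRNA level in RPE1 cells exposed to doxorubicin. The group comprised 9 genes chosen by symbol (CDK9, CCNT1, CCNT2, HEXIM1, HEXIM2, AFF4, ELL2, SUPT5H and LARP7). All 9 were found among the 26485 genes of the count table and all 9 passed the filter on low counts, as did 14187 genes in total. RPE1 is an established human line of retinal pigment epithelial cells, given as wild type in genotype and grown in one medium. Doxorubicin is an anthracycline that intercalates into DNA and poisons topoisomerase II. Poly-A RNA was sequenced from 2 cultures given DMSO, the solvent of the drug, from 2 cultures given 0.2 μM doxorubicin and from 1 culture given 0.34 μM doxorubicin, each for 18 h. The concentrations are those of the treatment labels, and the protocol text of the labels gives other, far higher values. The 3 doxorubicin libraries were pooled into one group. The 0.34 μM condition had no replicate of its own.

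RNA polymerase II halts shortly after initiation at most genes, and P-TEFb releases it into productive elongation by phosphorylating the polymerase, the negative factor NELF and the pausing factor DSIF. Cells hold a large store of P-TEFb in an inactive form, bound by HEXIM proteins on the 7SK RNA, which LARP7 protects from decay. Stress and DNA damage are known to release kinase from this store, and active P-TEFb is found with AFF4 and ELL2 in the super elongation complex.

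Across the series, the counts on genes summed to between 23773061 and 36725345 per library. The drug response was visible in CDKN1A, a target of p53, at 276 ± 26.1 CPM in DMSO and 2898 ± 500.2 in doxorubicin. Of the markers of the labelled cell type, MITF, OTX2, KRT8 and KRT18 were detected in every library with at least 601 counts, while RPE65, RLBP1 and TYR, which mark mature pigment epithelium, had between 0 and 8 counts. BEST1 had 14 to 142 counts and PMEL 5 to 46, both higher in all doxorubicin libraries (log2 fold changes 1.88 and 2.29, edgeR adjusted p = 0.0823 and 0.0264). The epithelial cadherin CDH1 had 0 to 4 counts. The blood marker HBB had 0 counts in every library and PTPRC, a marker of white blood cells, had 5 and 7 in DMSO against 25, 53 and 72 after doxorubicin (log2 fold change 2.86, edgeR adjusted p = 0.0212). KRT8 and KRT18 were also higher in all doxorubicin libraries (log2 fold changes 0.87 and 0.63, edgeR adjusted p = 0.0133 and 0.136). The mesenchymal markers VIM and CDH2 averaged 5799 and 414 CPM in DMSO (log2 fold changes -0.23 and -0.25, edgeR adjusted p = 0.369 and 0.530). TERT, taken as the marker of a telomerase transgene, had 49 and 67 counts in DMSO and 55, 18 and 56 after doxorubicin. Its log2 fold change was -0.60 (edgeR adjusted p = 0.441). None of the differences in these markers passed the threshold of 0.01, and their part in the results was not tested. CDKN1A did pass it (log2 fold change 3.39, edgeR adjusted p = 0.000768).

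HEXIM1, HEXIM2 and LARP7 encode proteins of the inhibitory 7SK complex. The 250 bases before an annotated start of each are shown so that the paralogs and their partner can be compared (RefSeq, GRCh38.p14, 5′ to 3′). The capitals mark matches, on either strand, to 7 motifs, namely the TATA box (TATAAA), the CCAAT box (CCAAT), the GC box (GGGCGG), an ETS site (CCGGAAG), the CHR element (TTTGAA), an E-box (CACGTG) and the p53 half-site.
HEXIM1 (chr17:45148225-45148474, plus strand): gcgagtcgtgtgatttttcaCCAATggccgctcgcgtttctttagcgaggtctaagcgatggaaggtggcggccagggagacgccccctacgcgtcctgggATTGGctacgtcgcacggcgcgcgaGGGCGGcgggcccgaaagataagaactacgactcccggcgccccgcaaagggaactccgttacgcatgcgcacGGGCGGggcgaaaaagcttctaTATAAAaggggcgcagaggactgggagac
HEXIM2 (chr17:45161625-45161874, plus strand): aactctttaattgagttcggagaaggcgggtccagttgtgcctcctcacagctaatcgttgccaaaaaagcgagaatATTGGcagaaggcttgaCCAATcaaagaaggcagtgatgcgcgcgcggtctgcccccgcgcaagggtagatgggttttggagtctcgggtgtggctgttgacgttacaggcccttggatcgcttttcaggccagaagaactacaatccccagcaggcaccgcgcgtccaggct
LARP7 (chr4:112636893-112637142, plus strand): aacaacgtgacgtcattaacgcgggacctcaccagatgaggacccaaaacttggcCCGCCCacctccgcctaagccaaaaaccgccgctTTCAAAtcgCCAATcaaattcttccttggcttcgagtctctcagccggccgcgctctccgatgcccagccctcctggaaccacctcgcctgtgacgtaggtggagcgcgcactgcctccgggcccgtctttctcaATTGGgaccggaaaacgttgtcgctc

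HEXIM1 was the only member with a TATA box in any of its windows, a motif found in 10.7% of 35116 windows of this length before RefSeq starts. It also held 2 CCAAT boxes and 2 GC boxes. HEXIM2 held 2 CCAAT boxes and none of the other 6 motifs in the window shown. LARP7 held 2 CCAAT boxes, 1 GC box and 1 CHR element. CCAAT boxes occurred in 32.0% of all windows, GC boxes in 42.6% and CHR elements in 13.3%. No window of any member held a p53 half-site, which 5.57% of all windows did. For HEXIM2 and LARP7 the table gives 2 starts each, and the window richer in CpG is shown. For HEXIM2 this window lies inside the gene, before its later start. The other HEXIM2 window, directly before the gene start given below, held 1 CHR element, and the other LARP7 window held 1 GC box. Windows were found for 8 members, and none was matched for ELL2. A match is a description of the letters only.

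HEXIM1 (chromosome 17, 45148475 to 45152099) is encoded by 1 exon, and HEXIM2 (chromosome 17, 45160174 to 45170040) begins 8074 bases downstream on the same strand with 4 exons in its canonical transcript. The long noncoding RNA HEXIM2-AS1 overlaps both. LARP7 (chromosome 4, 112637143 to 112657586) has 13 exons and overlaps the annotated miR-302 and miR-367 genes with their host transcript. CDK9 (chromosome 9, 127786034 to 127790792) spans 4.76 kb in 7 exons, CCNT1 (chromosome 12, 48688458 to 48716707) spans 28.2 kb, and CCNT2 (chromosome 2, 134918822 to 134959342) spans 40.5 kb. None of these 3 overlaps another annotated gene. SUPT5H (chromosome 19, 39445582 to 39476670) spans 31.1 kb with 30 exons and contains a small nucleolar RNA gene. ELL2 (chromosome 5, 95885098 to 95961851) spans 76.8 kb and overlaps CAST, and AFF4 (chromosome 5, 132875395 to 132963634) spans 88.2 kb and contains 2 pseudogenes. The library kit kept strand, but whether the counting used it is unknown, so that the counts of the 6 members with an overlapping gene could include reads of the other gene.

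To compare genes with each other, the levels were divided by the length of the Ensembl canonical transcript and are given as CPM per kilobase (CPM, the count scaled to the TMM-normalized library size). In DMSO the order was SUPT5H at 45.5 (between 41.3 and 49.7, n = 2), HEXIM1 at 39.5 ± 2.85 (SD), LARP7 at 32.5 ± 6.41, ELL2 at 28.6 ± 17.6, AFF4 at 25.3 ± 1.42, CDK9 at 19.8 ± 2.60, CCNT1 at 7.05 ± 0.289, CCNT2 at 5.39 ± 1.15 and HEXIM2 at 3.95 ± 0.816. On this scale, which takes the canonical transcript for each gene, the kinase mRNA stood above that of either cyclin T. Without the division by length, CDK9 and CCNT1 were alike in DMSO, at means of 49.3 and 47.8 CPM. HEXIM1 stood far above HEXIM2 with and without this division. The ranges of SUPT5H and HEXIM1 in CPM per kilobase overlapped, although SUPT5H was the higher in each DMSO library. Those of LARP7 and ELL2 and those of ELL2 and AFF4 overlapped too, and the order within these pairs differed between the DMSO libraries. After doxorubicin the order was SUPT5H at 50.9 ± 1.38 CPM per kilobase (SD, n = 3), ELL2 at 40.4 ± 1.46, HEXIM1 at 33.8 ± 3.18, AFF4 at 24.2 ± 2.93, CDK9 at 23.7 ± 0.462, LARP7 at 22.1 ± 2.88, CCNT1 at 6.72 ± 0.438, HEXIM2 at 5.90 ± 0.408 and CCNT2 at 4.50 ± 0.389. LARP7 was in the third place in DMSO and the sixth after doxorubicin. The ranges of AFF4, CDK9 and LARP7 overlapped in part here. AFF4 was above LARP7 in every doxorubicin library, while the place of CDK9 differed between libraries. The ranges of CCNT1 and HEXIM2 overlapped as well, with CCNT1 the higher in every doxorubicin library.

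Next, the doxorubicin libraries were compared with the DMSO libraries. At an adjusted p of 0.01, none of the 9 members passed the threshold in edgeR's quasi-likelihood test (0 of 9, against 4.02% of all genes tested). DESeq2 and limma voom on the same groups also called 0 members, where DESeq2 called 14.1% of all genes, 6.37% higher and 7.72% lower. At an unadjusted p under 0.05 there were 2 members, LARP7 and HEXIM2, where 30.8% of all genes were at this level. The median log2 fold change of the members was -0.062, beside 0.013 for all genes tested, with 4 members above 0 and 5 below. The log2 fold change was within 0.5 of 0 in 7 of 9 members and in 61.3% of all genes. In 5 members the libraries of the treatments did not overlap, 3 higher and 2 lower after doxorubicin, where 47.7% of all genes tested did not overlap, 24.3% higher and 23.4% lower. In bulk RNA, fewer cells of a type and less RNA per cell cannot be told apart.

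**Figure D1:**
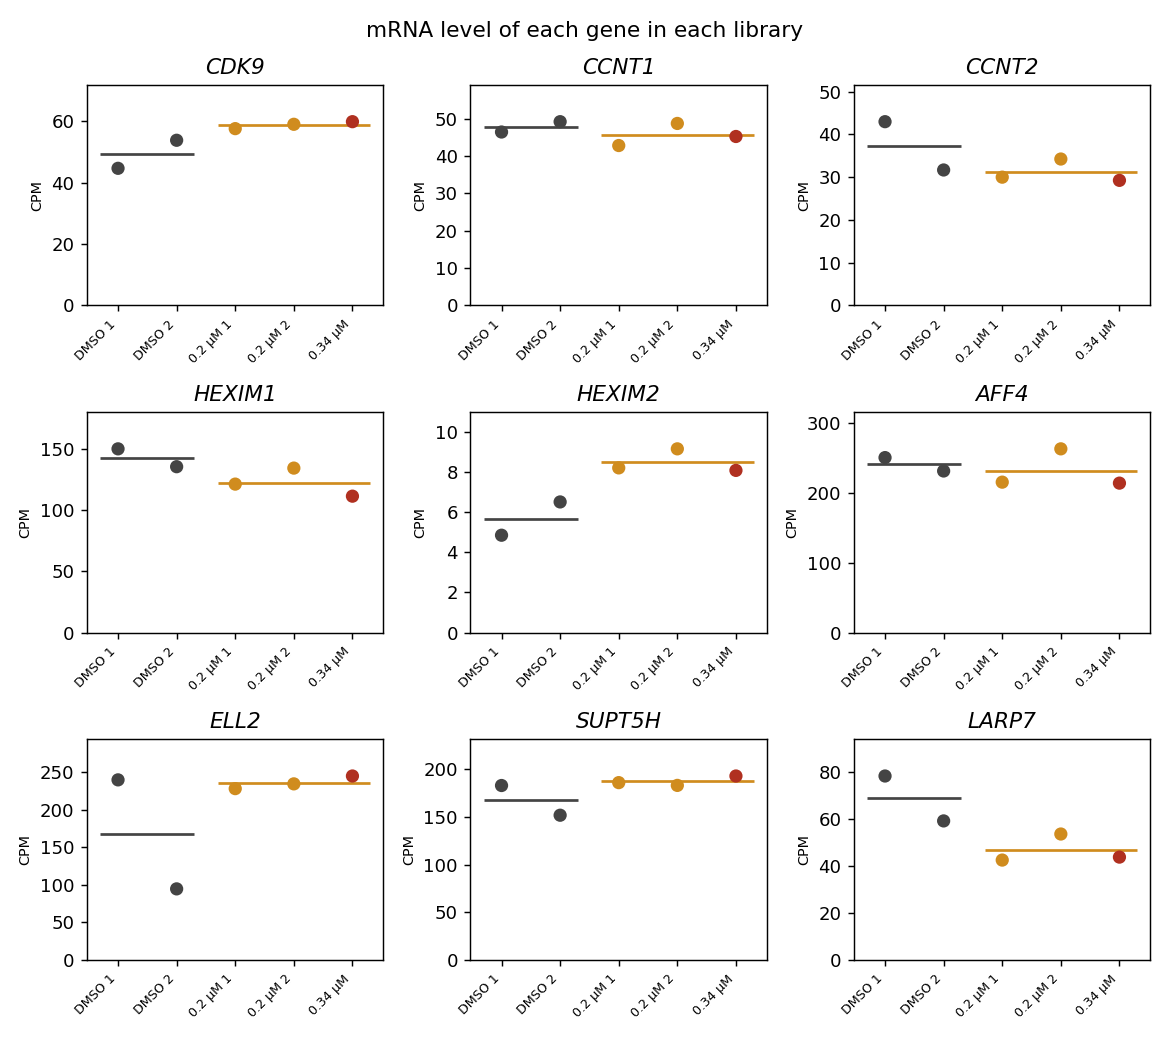
Level of each of the 9 genes in CPM (y axis, linear from 0) in each of the 5 libraries, with DMSO in grey, 0.2 μM doxorubicin in orange and 0.34 μM in red, and the group means as lines. LARP7 lies lower and HEXIM2 higher in the 3 doxorubicin libraries than in both DMSO libraries, and ELL2 is low in DMSO replicate 2 only.

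LARP7, the protein that binds and stabilizes 7SK RNA, had 78.1 and 59.0 CPM in the DMSO libraries, 42.4 and 53.4 in the 0.2 μM libraries and 43.6 in the 0.34 μM library. All 3 doxorubicin libraries were below both DMSO libraries. The log2 fold change was -0.56 (SE 0.19, 95% interval -1.01 to -0.11, edgeR adjusted p = 0.0958), which did not pass the threshold. The lower DMSO and the higher doxorubicin library lay close together. Without DMSO replicate 1 the log2 fold change was -0.35, and without DMSO replicate 2 it was -0.77. By the distance of log2 CPM profiles over the 5 libraries, the 3 of 11756 genes most like LARP7 were IKZF4, HNRNPC and PCF11, at distances of 0.084, 0.106 and 0.106. HNRNPC encodes a protein that packages nascent transcripts, and PCF11 a factor that ends transcription at the cleavage site. The log2 fold changes of the 3 genes, -0.59, -0.56 and -0.58, did not pass the threshold either (adjusted p = 0.122, 0.0933 and 0.0818 from edgeR). The genes were chosen by profile over the same libraries, so that closeness to the value of LARP7 follows from the choice. A shared role was not tested.

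HEXIM1, the main protein inhibitor of the kinase, had 150.4 and 136 CPM in DMSO, 122 and 135 at 0.2 μM and 112 at 0.34 μM. The doxorubicin libraries were all lower, but replicate 2 of 0.2 μM lay within 2 CPM of DMSO replicate 2. On the log2 scale the difference was -0.22 (SE 0.15, 95% interval -0.58 to 0.13, edgeR adjusted p = 0.359).

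HEXIM2, the paralog that can take the place of HEXIM1 on 7SK, differed in the opposite direction, with 4.84 and 6.50 CPM in DMSO, 8.19 and 9.14 at 0.2 μM and 8.07 at 0.34 μM. It was the least counted member, with 127 and 166 counts in DMSO and 212, 220 and 293 after doxorubicin. All doxorubicin libraries were above both DMSO libraries. The log2 fold change was 0.58 (SE 0.24, 95% interval 0.015 to 1.14, edgeR adjusted p = 0.153) and did not pass the threshold. Without DMSO replicate 1 it was 0.37, and without DMSO replicate 2 it was 0.79, with adjusted p-values of 0.317 and 0.0936 from edgeR.

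The RNA scaffold of the complex, RN7SK, which was looked at after the other values were seen, had 99 and 50 counts in DMSO and 107, 83 and 165 after doxorubicin. This RNA is made by RNA polymerase III and carries no poly-A tail, so that its counts in poly-A libraries do not give its level. MEPCE, the enzyme that caps 7SK, stood at -0.28 on the log2 scale (SE 0.24, edgeR adjusted p = 0.473).

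CDK9, the kinase subunit of P-TEFb, had 44.7 and 53.8 CPM in DMSO, 57.6 and 59.0 at 0.2 μM and 59.9 at 0.34 μM. The doxorubicin libraries were close together and above both DMSO libraries. The difference did not pass the threshold, at a log2 fold change of 0.26 (SE 0.15, 95% interval -0.10 to 0.61, edgeR adjusted p = 0.297). Without DMSO replicate 1 it was 0.12, and without DMSO replicate 2 it was 0.38.

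Cyclin T1 and cyclin T2, the alternative partners that activate CDK9, had log2 fold changes below 0. CCNT1 had 46.4 and 49.2 CPM in DMSO against 42.8, 48.7 and 45.2 after doxorubicin, so that the groups overlapped, and its log2 fold change was -0.069 (SE 0.14, 95% interval -0.41 to 0.28). CCNT2 had 43.0 and 31.7 CPM in DMSO against 30.0, 34.2 and 29.2, with a log2 fold change of -0.26 (SE 0.19, 95% interval -0.71 to 0.19). DMSO replicate 2 of CCNT2 lay among the doxorubicin libraries, and its log2 fold change came to -0.033 when DMSO replicate 1 was dropped and to -0.48 when DMSO replicate 2 was dropped. That of CCNT1 lay between -0.12 and -0.021 when 1 library at a time was dropped. The adjusted p-values from edgeR were 0.790 and 0.397. For CCNT1 the interval holds no change larger than 0.41 on the log2 scale in either direction, the narrowest bound of the 9 members.

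Among the elongation factors, ELL2 showed how much a single control library decided. ELL2, which raises the rate of the polymerase in the super elongation complex, had 239 and 94.3 CPM in the DMSO libraries, 228 and 234 at 0.2 μM and 245 at 0.34 μM. DMSO replicate 1 was at the level of the doxorubicin libraries, while DMSO replicate 2 was far below all others. The gap between the DMSO libraries was 1.34 on the log2 scale, larger than in all but 6.49% of genes tested. The log2 fold change was 0.50 (SE 0.36, 95% interval -0.36 to 1.35, edgeR adjusted p = 0.399). It was 1.31 without DMSO replicate 1 (edgeR adjusted p = 0.0117) and -0.041 without DMSO replicate 2 (edgeR adjusted p = 0.863), so that no direction could be given.

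AFF4, the scaffold of the super elongation complex, had 251 and 231 CPM in DMSO and 215, 263 and 214 after doxorubicin. The highest and the lowest library were both doxorubicin libraries. Its log2 fold change was -0.062 (SE 0.16, 95% interval -0.44 to 0.32, edgeR adjusted p = 0.832), and between -0.16 and -0.0068 when 1 library at a time was dropped.

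SUPT5H, the large subunit of DSIF and a substrate of CDK9, had 183 and 152 CPM in DMSO and 186, 183 and 193 after doxorubicin. The lowest doxorubicin library and DMSO replicate 1 were nearly equal. On the log2 scale the difference was 0.16 (SE 0.15, 95% interval -0.19 to 0.52, edgeR adjusted p = 0.507). Leaving out DMSO replicate 1 gave 0.30, and leaving out DMSO replicate 2 gave 0.017.

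**Figure D2:**
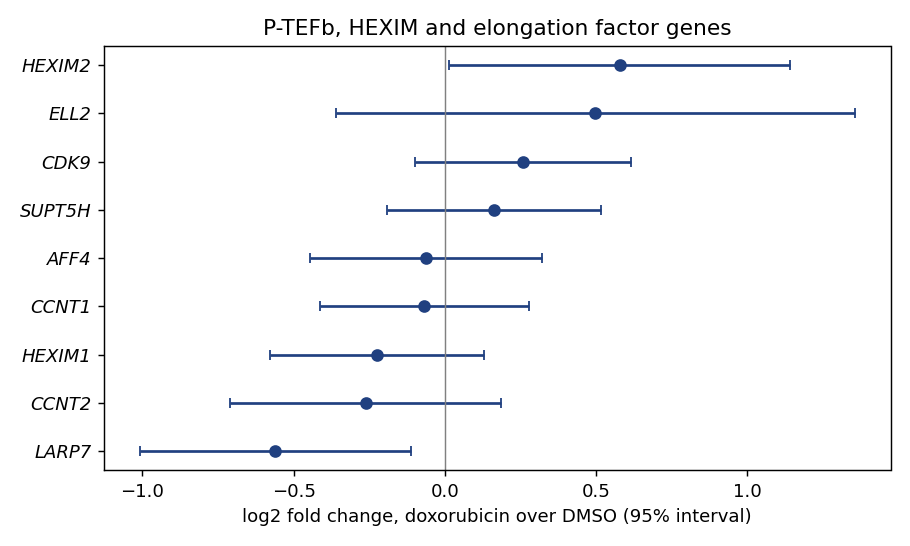
Log2 fold change of each gene, doxorubicin (3 libraries) over DMSO (2 libraries), with points for the edgeR estimate and bars for the 95% interval. The intervals of LARP7 and HEXIM2 leave out 0, those of the other 7 genes include it, and that of ELL2 is the widest.

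Ratios of the mRNA levels of paired genes were then compared within each library, since such a ratio is free of the library scaling. They do not give protein levels or the share of P-TEFb held inactive. Of 5 pairs, HEXIM1/HEXIM2, HEXIM1/CDK9 and LARP7/CDK9 did not overlap between the treatments, where 47.7% of single genes did not. Each of these sets a member that was lower in every doxorubicin library against one that was higher, and HEXIM1 and CDK9 each enter 2 of them, so that their separation follows from that of the single members and adds no support. The log2 ratio of HEXIM1 to HEXIM2 was 4.94 and 4.37 in DMSO, 3.88 and 3.87 at 0.2 μM and 3.78 at 0.34 μM. It was lower after doxorubicin by a mean difference of -0.81, and the counts of HEXIM1 per count of HEXIM2 went from 31.1 and 20.9 to between 13.8 and 14.8. The log2 ratio of LARP7 to CDK9 was 0.80 and 0.13 in DMSO and -0.44, -0.14 and -0.46 after doxorubicin, a mean difference of -0.82. LARP7 was thus above CDK9 in both DMSO libraries and below it in all doxorubicin libraries on the CPM scale, where the genes are not corrected for length. With correction for length, LARP7 stayed above CDK9 in replicate 2 of 0.2 μM, at 25.4 against 23.8 CPM per kilobase. The log2 ratio of HEXIM1 to CDK9 was 1.75 and 1.33 in DMSO and 1.08, 1.19 and 0.90 after doxorubicin, a mean difference of -0.49. The exact permutation test (two-sided, 10 splits of 3 against 2 libraries) gave p = 0.1 for each of these 3 pairs, the smallest p that the design allows and the one that separation fixes, and 0.167 when adjusted over the 5 pairs. For CCNT1/CCNT2 the mean difference was 0.18 (exact permutation p = 0.5) and for ELL2/AFF4 it was 0.71 (exact permutation p = 0.2), and both overlapped.

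**Figure D3:**
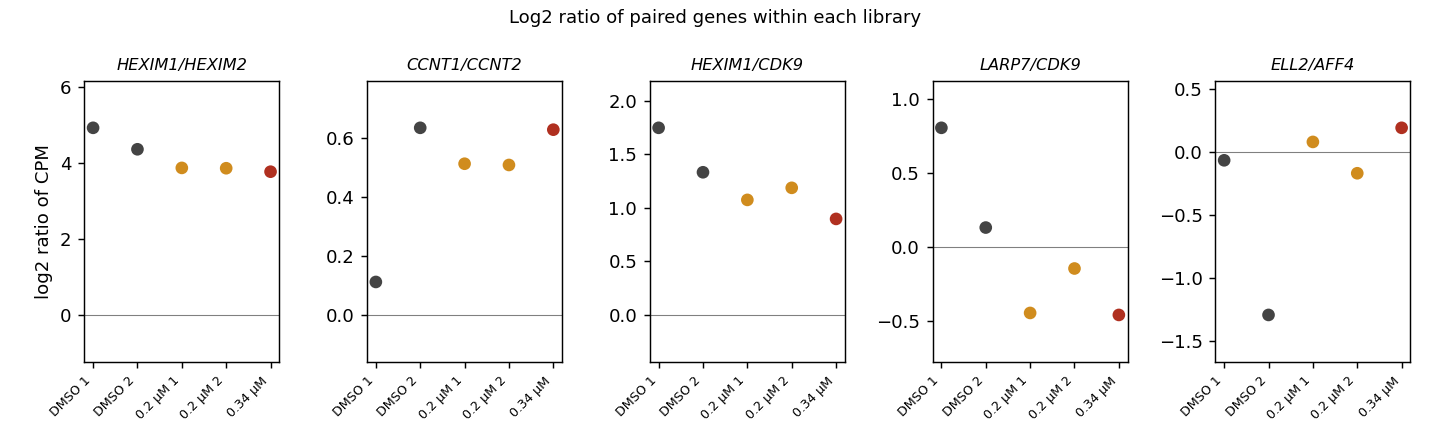
Log2 ratio of CPM (y axis, a scale of its own in each panel) for 5 pairs of genes in each of the 5 libraries, with DMSO in grey, 0.2 μM in orange and 0.34 μM in red. HEXIM1/HEXIM2, HEXIM1/CDK9 and LARP7/CDK9 are lower in all 3 doxorubicin libraries than in both DMSO libraries, while CCNT1/CCNT2 and ELL2/AFF4 overlap.

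The size of these differences rested on the DMSO libraries. Without DMSO replicate 1 the mean differences of HEXIM1/HEXIM2, LARP7/CDK9 and HEXIM1/CDK9 were -0.53, -0.48 and -0.28, and without DMSO replicate 2 they were -1.09, -1.15 and -0.70. For ELL2/AFF4 the values were 1.33 and 0.10, and for CCNT1/CCNT2 the difference went from -0.085 to 0.44.

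The concentrations were compared with 1 library at 0.34 μM, which limits what can be seen. Subtracting the mean log2 level at 0.2 μM from that at 0.34 μM gave values from -0.20 for HEXIM1 to 0.083 for ELL2 in the fit. The 95% intervals reached from -0.80 to 0.41 for HEXIM1, from -0.86 to 0.59 for LARP7 from -1.07 to 0.86 for HEXIM2 and, at the widest, from -1.10 to 1.27 for ELL2, so that differences of this size cannot be told from none. None of the 9 members passed the threshold (0 of 9, against 0% of all genes tested in edgeR, with 0.155% at an unadjusted p under 0.05). DESeq2 and limma voom also called 0. Only DMSO and 0.2 μM, with 2 libraries each, contributed to the spread in this fit.

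Finally, the members were set beside other genes of transcription elongation, from 5 lists of 55 symbols compiled from general knowledge. Of these, 52 genes were tested, 0 were higher and 2 were lower at the threshold (1.29% and 2.73% of all genes tested). The median log2 fold change was -0.21, with 37 genes below 0 and 15 above. For all genes tested it was 0.013, with 6933 below 0 and 7254 above. Both calls held with DESeq2 and limma voom. They did not hold when single libraries were left out, as given for each gene below. Over all genes, 571 were called in the main fit and between 178 and 207 when 1 doxorubicin library was left out.

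SSRP1, a subunit of the FACT histone chaperone that accompanies the polymerase through nucleosomes, fell from 291 and 343 CPM in DMSO to 131, 143 and 118 after doxorubicin. Its log2 fold change was -1.28 (SE 0.16, edgeR adjusted p = 0.00476). When 1 library at a time was dropped, the log2 fold change was between -1.41 and -1.17 and the adjusted p between 0.0106 and 0.0323 from edgeR, so that the call was lost in all 5 fits while the direction was not. SUPT16H, the other subunit of FACT, had 295 and 314 CPM in DMSO and 147, 205 and 148 after doxorubicin (log2 fold change -0.87, SE 0.19). It did not pass the threshold in edgeR (adjusted p = 0.0302) and passed it with DESeq2.

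PPM1G, a phosphatase that is recruited to 7SK complexes and helps to release P-TEFb from them, fell from 181 and 187 CPM to 98.6, 103 and 95.5. The groups were far apart relative to the spread within them. Its log2 fold change was -0.89 (SE 0.13, edgeR adjusted p = 0.00808). Dropping 1 library at a time, it was between -0.93 and -0.86, with adjusted p-values between 0.0169 and 0.0664 from edgeR, and the call was lost in all 5 fits.

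In the list of other transcription kinases and P-TEFb recruiters, 13 of 14 genes had a log2 fold change below 0, with a median of -0.47 and 1 call, PPM1G. The libraries of the treatments did not overlap in 10 of them, all lower. Of all 14187 genes tested, 6933 were below 0, 23.4% were lower without overlap and 2.73% were called lower. The list holds, among others, the kinases of initiation, of the Mediator complex and of late elongation. Of the 13 factors of the elongating polymerase, such as the PAF complex, 9 were below 0, with a median of -0.34. Of these 13, 8 were lower without overlap (23.4% of all genes) and 1, SSRP1, was called lower (2.73% of all genes). The 6 pausing and 7SK factors, NELF, SUPT4H1 and MEPCE, had a median of -0.15 with log2 fold changes between -0.28 and 0.15. Of these 6, 0 were without overlap, where 47.7% of all genes were. The 7 tested partners in the super elongation complex had a median of 0.034 and ranged from -0.52 for MLLT3 to 0.76 for ELL3. Without overlap, 3 of the 7 were higher and 2 lower, where 24.3% and 23.4% of all genes were. The 12 subunits of RNA polymerase II had a median of -0.029, and 0 of them passed the threshold. Without overlap, 3 of the 12 were higher and 3 lower, near the 24.3% and 23.4% of all genes. No set test was made, and these counts and medians describe the lists only.

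**Figure D4:**
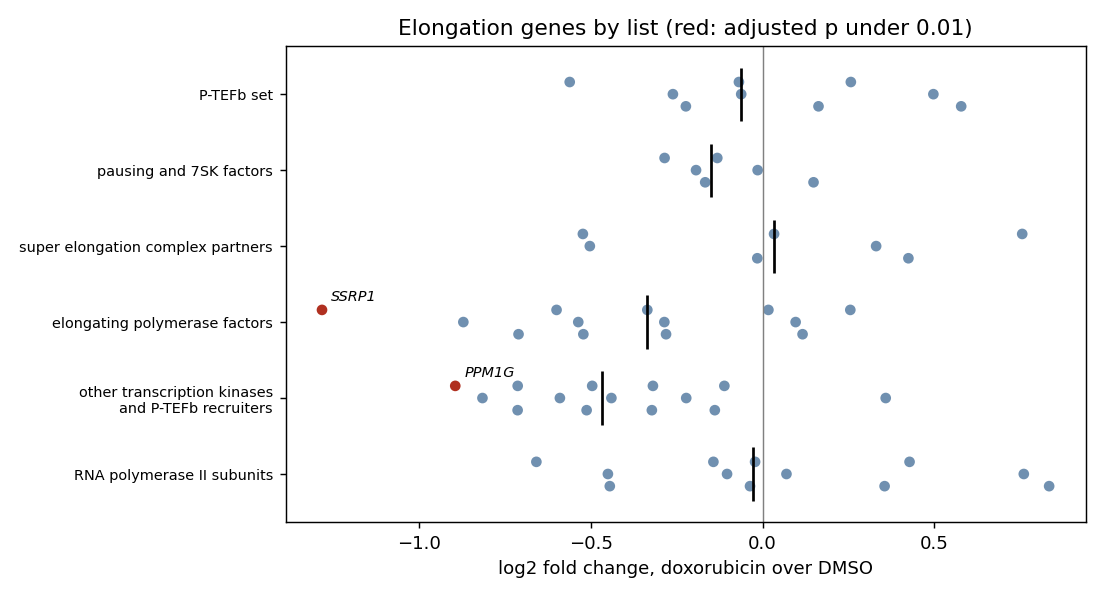
Log2 fold change (x axis, doxorubicin over DMSO) of each tested gene in 6 lists, one point per gene, with the median of each list as a black line and genes past the threshold in red. The 9 P-TEFb genes lie on both sides of 0, 13 of 14 genes of the kinase and recruiter list lie below it, and SSRP1 and PPM1G are the genes past the threshold.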

How the data were processed

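RNA-seq of 5 libraries of RPE1 cells (2 DMSO, 2 with 0.2 μM and 1 with 0.34 μM doxorubicin, 18 h) was analysed. The authors deposited raw read counts per gene, obtained by mapping poly-A reads to hg38 with STAR and counting with featureCounts of Rsubread. Software versions, strand setting and handling of multi-mapping reads: not given in the sources used here. A second table, of the authors' own DESeq2 fold changes and p-values, was not used. Counts were tested in R 4.3.3 with edgeR 4.0.16 (quasi-likelihood test, TMM, minimum count of 10, minimum total of 15), with 3 pooled doxorubicin libraries against 2 DMSO libraries over all genes, and adjusted by Benjamini-Hochberg at a threshold of 0.01. DESeq2 1.42.0 and limma 3.58.1 were alternatives. The concentrations were compared in a fit of 3 conditions. Each SE was obtained as |log2FC| over the root of the F statistic. Log2 CPM used a prior count of 2, and CPM values are TMM-normalized. Replicate pairs differed by far more than sampling noise (chi-square per degree of freedom of 117 and 75.3), so each library counts once, and intervals given for fold changes are 95% intervals of the fit. The pipeline was run on simulated data whose planted changes were larger than those of any member. That run does not show whether differences of the members' size would be found. Members and lists were chosen with earlier results of these data known. Named genes are the members, list genes past the threshold (at most 10), the 3 genes with the profile nearest to the member of smallest p (mean log2 CPM at or above 1), and CDKN1A. RN7SK, MEPCE, SUPT16H, MLLT3 and ELL3 were named after their values were seen. Gene positions and promoters are RefSeq on GRCh38.p14, and transcript lengths are GENCODE v44 canonical transcripts, for which only lengths were used. The alternatives were the tool, normalization, filter, threshold, dose grouping, replicate block, prior count and leaving out each library. One gene of the lists is not reported here by name.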

Additional observations from a re-analysis of the deposited data

How the results depend on the processing

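No member passed the threshold under any of the alternatives run for the comparison of doxorubicin with DMSO, namely 12 other fits and an adjusted p of 0.05 (at which 13.6% of all genes passed), where the other fits called between 49 and 2026 genes in all, and none did under the 3 alternatives for the concentrations. The direction of the members' log2 fold changes was the same in all of these except for ELL2, which ranged from -0.041 (without DMSO replicate 2) to 1.31 (without DMSO replicate 1). Of the other elongation genes, 2 were lower in edgeR. The count of lower genes was 4 of 52 with DESeq2, where 7.72% of all genes were lower. It was also 4 in edgeR at an adjusted p of 0.05, where 13.6% of all genes passed in either direction. It was 0 with the 0.2 μM or the 0.34 μM libraries alone against DMSO and 0 when dropping any 1 library (lowest and highest 0). With the replicate number as a block in the 4 libraries that share numbers, from which the 0.34 μM library is absent, the count was 2, and without the block in the same 4 libraries, which is also the fit that leaves out the 0.34 μM library, it was 0, with 1249 and 178 genes called in all. The deviations of same-numbered libraries from their group means correlated across 14187 genes (r = 0.528). The labels give these libraries a shared number but no shared batch or day. With 2 pairs, the source of the correlation was not tested, and the main fit does not pair the libraries. When 1 library at a time was dropped, the mean differences of the log2 ratios ranged from -1.09 to -0.53 for HEXIM1/HEXIM2, from -0.085 to 0.44 for CCNT1/CCNT2, from -0.70 to -0.28 for HEXIM1/CDK9, from -1.15 to -0.48 for LARP7/CDK9 and from 0.10 to 1.33 for ELL2/AFF4. The cause of these changes was not tested. The 2 control libraries limit the precision, which the 95% intervals of the members give.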
